A study of Homo sapiens with 16 samples.

Results

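The comparison described here is the response to CM-1758, an inhibitor of histone deacetylases, in J82 against the response in RT112. It rests on 8 of the 16 RNA-seq libraries of the series: 2 of J82 control, 2 of J82 CM-1758, 2 of RT112 control and 2 of RT112 CM-1758, taken from the sample labels. J82 and RT112 are established human bladder cancer cell lines, given as wild type in the labels and grown in DMEM with fetal bovine serum. Treated cultures received CM-1758 for 48 h at the IC50 of their own line, so the concentration was not the same in J82 and RT112, and cell line and concentration cannot be told apart. Control cultures received a vehicle of 0.01% DMSO per the labels, while the study elsewhere calls them untreated. Each library is an independent biological replicate per the methods of the study, and the labels number the J82 libraries 1 and 3 and the RT112 libraries 1 and 2. The question asked was which genes responded differently in the 2 lines, above all which moved in opposite directions, and at what level each stood in the control cultures.

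The values are reads counted per gene. Total counts ran from 28723648 to 32537104 in J82 and from 22756616 to 30502612 in RT112, with the lowest totals, 22756616 and 23205057, in the RT112 CM-1758 libraries. Of 17 urothelial markers, 16 reached a level of 1 CPM (reads per 1e6 reads) in RT112 control and 8 in J82 control, where 5 had 0 counts, KRT5, UPK1B and UPK2 among them. The keratins KRT7, KRT8, KRT18 and KRT19 were abundant in both lines. Of 8 leukocyte markers 2 reached 1 CPM in J82 control, CD68 at 68.4 and 24.6 CPM and CD14 at 4.25 and 2.51 CPM, and 1 in RT112 control, CD68 at 4.02 and 3.15 CPM, while CD3E and MS4A1 had 0 counts in all 8 libraries. The summed level of the leukocyte markers was 27.6 to 72.7 CPM in J82 control, 11.7 to 23.3 CPM in J82 CM-1758, 4.13 to 4.51 CPM in RT112 control and 4.61 to 5.01 CPM in RT112 CM-1758. Of 9 fibroblast markers 5 reached 1 CPM in J82 control and 3 in RT112 control, and 6 in each line with CM-1758. COL3A1 stood at 2979 and 3178 CPM in J82 control and LUM at 1363 and 1330 CPM in RT112 control. The part of these markers in the results was not tested. Counts were normalised to CPM on TMM library sizes and tested with the quasi-likelihood test of edgeR over all 16 libraries, with p-values adjusted over the 21297 genes tested.

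Histone deacetylases remove acetyl groups from histones and other proteins, and their inhibitors raise histone acetylation and change the transcription of many genes at once, upwards and downwards. The type I interferon pathway runs from ligand and receptor through the kinases JAK1 and TYK2 to transcription factors such as STAT2 and IRF9, which bind the interferon-stimulated response element (ISRE) in the promoters of antiviral genes. Some tumour cell lines keep these genes switched on without added interferon. Urothelial differentiation is marked by uroplakins, the membrane proteins of the bladder surface, and by receptor tyrosine kinases such as FGFR3 and ERBB3. RT112 is regarded as a better differentiated, epithelial line and J82 as a poorly differentiated one.

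Because interferon-induced genes stood out among those that fell in J82 and rose in RT112, the promoters were searched for the element of that pathway, and stretches of 7 of them are shown. The promoters are RefSeq sequences on GRCh38.p14, from 250 bases before to 50 bases after the transcript start, printed on the strand of the gene with 25 bases on each side of the matches. Capitals mark every match to the ISRE core GAAANNGAAA, searched on both strands, where overlapping matches run together and a match on the other strand reads as its reverse complement.
IFIT1, chr10:89392482-89392554, plus strand: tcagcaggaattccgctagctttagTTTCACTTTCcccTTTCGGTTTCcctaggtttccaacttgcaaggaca
ISG15, chr1:1013359-1013424, plus strand: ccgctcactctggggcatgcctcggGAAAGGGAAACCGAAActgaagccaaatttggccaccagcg
BST2, chr19:17405720-17405785, minus strand: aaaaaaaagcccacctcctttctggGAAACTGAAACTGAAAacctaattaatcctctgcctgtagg
IFI6, chr1:27672251-27672373, minus strand: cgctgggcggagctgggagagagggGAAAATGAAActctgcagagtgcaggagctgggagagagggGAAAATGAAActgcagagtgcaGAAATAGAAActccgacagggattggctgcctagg
CXCL10, chr4:76023684-76023743, minus strand: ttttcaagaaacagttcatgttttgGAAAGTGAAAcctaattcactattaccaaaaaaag
EPSTI1, chr13:42992257-42992316, minus strand: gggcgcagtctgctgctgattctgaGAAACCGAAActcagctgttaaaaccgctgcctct
EMP3, chr19:48325337-48325396, plus strand: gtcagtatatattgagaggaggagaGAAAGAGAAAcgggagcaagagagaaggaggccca
A promoter sequence was at hand for 47 of the 67 genes that fell in J82 and rose in RT112, and 10 of them (21.3%) held the core. The core was in 438 of the 14604 promoters of tested genes (3%), in 2 of 50 promoters (4%) of the genes that rose in J82 and fell in RT112, and in 23 of 33 promoters (69.7%) of a list of antiviral genes. Among the 38 promoters of the first class outside that list it was in 3 (7.89%), those of CXCL10, PLSCR1 and EMP3. An AP-1 site, TGANTCA, was in 2 of 47 promoters (4.26%) of the first class, 3 of 50 (6%) of the second and 793 of all 14604 (5.43%). A match is a run of letters in this window and does not show that a factor binds there.

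The response differed between the lines, at an adjusted p under 0.01 and an absolute log2 difference over 2, at 600 genes whose response was higher in J82 (2.82% of the genes tested) and 681 whose response was higher in RT112 (3.2%). Most of these moved in 1 line and were not called in the other. Of the 600, 356 rose in J82 and were not called in RT112, 82 rose in both lines and more in J82, 82 fell in RT112 and were not called in J82, and 72 rose in J82 and fell in RT112. Of the 681, 395 rose in RT112 and were not called in J82, 130 rose in both and more in RT112, 79 fell in J82 and were not called in RT112, and 67 fell in J82 and rose in RT112. To count as risen or fallen in 1 line a gene needed an adjusted p under 0.01 and an absolute log2 fold change over 1. By that measure 13.7% of the genes tested rose and 6.46% fell in J82, and 16.1% rose and 7.27% fell in RT112. The opposite classes were therefore a small share of the genes tested, 0.315% for the 67 lower in J82 and higher in RT112 and 0.338% for the 72 higher in J82 and lower in RT112.

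Of the 67 genes that fell in J82 and rose in RT112, 10 are interferon-induced antiviral genes. These 10 come from a list of 41, and 0.315% of all genes tested were in this class. All 41 fell in J82, so membership turned on the rise in RT112. There 10 of the 41 rose, beside 16.1% of all genes tested. IFIT1, which binds viral RNA, stood at 505 and 641 CPM in J82 control and at 102 and 70.7 CPM with CM-1758. In RT112 it stood at 9.68 and 7.15 CPM in control and at 115 and 82 CPM with CM-1758. The control and treated libraries did not overlap in either line, and the treated libraries of both lines reached a similar level from opposite sides. The log2 fold change was -2.73 ± 0.23 (SE) in J82 and 3.55 ± 0.25 in RT112, and the difference was -6.28 ± 0.34 (adjusted p = 3.42e-08).

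ISG15, a ubiquitin-like protein that is joined to other proteins during the interferon response, fell from 1063 and 1029 CPM to 130 and 64.8 CPM in J82 and rose from 18.4 and 14.3 CPM to 96.7 and 72.9 CPM in RT112, a difference of -5.79 ± 0.38 (adjusted p = 1.56e-07). HERC5, the ligase that attaches ISG15, stood at 221 and 233 CPM in J82 control against 89 and 74.3 CPM with CM-1758, and at 2.06 and 1.36 CPM in RT112 control against 3.44 and 4.16 CPM with CM-1758. Its difference was -2.62 ± 0.32 (adjusted p = 4.31e-05), the smallest in size of these 10 genes. Its rise in RT112, 1.15 on the log2 scale, was no longer called without RT112 control replicate 2 (0.88, adjusted p = 0.0393) or without RT112 CM-1758 replicate 2 (1.00, adjusted p = 0.0259).

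OASL, a relative of the oligoadenylate synthetases, went from 97.1 and 66.6 CPM to 19 and 6.97 CPM in J82 and from 0.915 and 1.8 CPM to 15.2 and 15.9 CPM in RT112, a difference of -6.18 ± 0.53 (adjusted p = 1.53e-06). RSAD2, which encodes the antiviral protein viperin, had the largest difference of the group. It stood at 350 and 210 CPM in J82 control, at 24.1 and 2.27 CPM in J82 CM-1758, at 0.36 and 0.542 CPM in RT112 control and at 6.18 and 6.9 CPM in RT112 CM-1758. The 2 treated J82 libraries were far apart, both below control. The log2 fold change was -4.41 with both and -6.87 without J82 CM-1758 replicate 1. The difference was -8.26 ± 1.06 (adjusted p = 5.98e-05). The rise of RSAD2 in RT112, 3.85 on the log2 scale, missed the threshold without RT112 CM-1758 replicate 2 (adjusted p = 0.0109), RT112 control replicate 1 (adjusted p = 0.0265) or RT112 control replicate 2 (adjusted p = 0.0171). RSAD2 also overlaps CMPK2 in the annotation.

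The genes of the viral RNA sensors RIG-I and MDA5 moved the same way. DDX58, which encodes RIG-I, fell in J82 from 713 and 662 CPM to 169 and 82.9 CPM and rose in RT112 from 23.8 and 24.7 CPM to 116 and 112 CPM. The difference was -4.68 ± 0.33 (adjusted p = 2.90e-07). IFIH1, which encodes MDA5, stood at 183 and 144 CPM in J82 control, 37 and 11 CPM in J82 CM-1758, 7.36 and 5.39 CPM in RT112 control and 19.4 and 20.1 CPM in RT112 CM-1758, with a difference of -4.40 ± 0.51 (adjusted p = 2.52e-05). Its rise in RT112 of 1.63 was not called without RT112 control replicate 2 (1.42, adjusted p = 0.0298) or RT112 CM-1758 replicate 2 (1.60, adjusted p = 0.0118).

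BST2, IFI6 and EPSTI1 complete the group. BST2, which encodes tetherin and holds budding viruses at the cell surface, stood at 828 and 636 CPM in J82 control and 295 and 200 CPM with CM-1758, and at 22 and 19.4 CPM in RT112 control and 77 and 81.7 CPM with CM-1758. IFI6, a small mitochondrial and endoplasmic reticulum protein, stood at 2526 and 1399 CPM against 848 and 544 CPM in J82 and at 11.5 and 9.45 CPM against 89.6 and 84.6 CPM in RT112. EPSTI1 stood at 138 and 135 CPM against 32.4 and 17.4 CPM in J82 and at 1.21 and 1.12 CPM against 4.46 and 2.86 CPM in RT112. The groups did not overlap for any of these genes, and the differences were -3.50 ± 0.32 for BST2, -4.55 ± 0.42 for IFI6 and -4.10 ± 0.51 for EPSTI1 (adjusted p = 2.99e-06, 3.39e-06 and 4.52e-05). Without J82 CM-1758 replicate 3 the fall of IFI6 was -1.21 (adjusted p = 0.0128), and without RT112 CM-1758 replicate 1 the rise of EPSTI1 was 1.29 (adjusted p = 0.0536), neither of them called. The rise of EPSTI1 was also not called without RT112 control replicate 1 (adjusted p = 0.0271) or 2 (adjusted p = 0.0332).

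**Figure D1:**
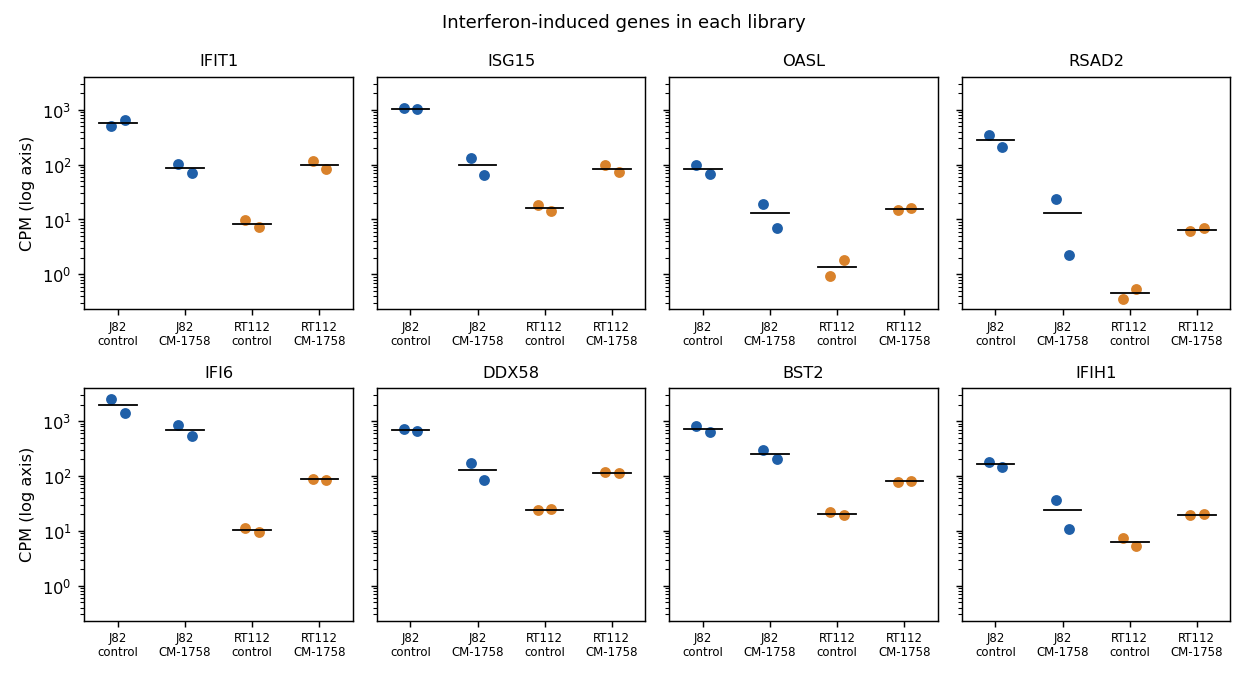
CPM on a log axis of 8 interferon-induced genes in each of the 8 libraries, with J82 in blue, RT112 in orange and a bar at the mean of the 2 libraries of a group. In every panel the J82 CM-1758 libraries lie below the J82 control libraries and the RT112 CM-1758 libraries above the RT112 control libraries.

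Over the list of 41 antiviral genes, all 41 fell in J82, where 6.46% of the genes tested did. In RT112 10 rose and 6 fell, against 16.1% and 7.27% of the genes tested. The median log2 fold change of the list was -3.08 in J82 and -0.43 in RT112, beside 0.05 and 0.12 over all genes tested, and 24 of the 41 were called for a response higher in RT112. The antiviral genes thus fell as a group in J82, while in RT112 some rose, some fell and most were not called. MX1, an antiviral GTPase, stood at 1174 and 1106 CPM in J82 control against 76.5 and 16.8 CPM with CM-1758, and at 9.28 and 8.51 CPM in RT112 control against 3.48 and 3.66 CPM with CM-1758. Its log2 fold change was -4.61 ± 0.49 in J82 and -1.32 ± 0.50 in RT112, the second not called (adjusted p = 0.0426). OAS1, an oligoadenylate synthetase, fell in J82 from 283 and 261 CPM to 27.9 and 6.2 CPM, and its values in RT112 were 82.9 and 81.3 CPM in control and 47.4 and 61.5 CPM with CM-1758. IFI44 fell in both lines, from 334 and 368 CPM to 105 and 58.6 CPM in J82 and from 2.55 and 2.27 CPM to 0.391 and 0.153 CPM in RT112. In 39 of the 41 genes the value was higher in J82 CM-1758 replicate 1 than in replicate 3, with a median ratio of 2.32, whereas the 2 RT112 CM-1758 libraries had a median ratio of 1.02. Among the control libraries of J82, replicate 1 was also above replicate 3 in 33 of the 41, with a median ratio of 1.17. The median log2 fold change of the list in J82 was -3.81 without J82 CM-1758 replicate 1 and -2.58 without replicate 3, and the median difference, -2.80 with all libraries, was -3.76 and -2.50. The fall of the genes named above from J82 control held in each of the 2 libraries.

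Upstream of these genes, the transcription factors STAT2 and IRF9 fell in J82 and were not called in RT112. STAT2 stood at 389 and 318 CPM against 112 and 83.7 CPM in J82 and at 82.3 and 70.8 CPM against 138 and 132 CPM in RT112, a log2 fold change of -1.85 ± 0.16 and 0.82 ± 0.16. IRF9 stood at 82.1 and 88.5 CPM against 16.8 and 9.14 CPM in J82 and at 9.71 and 9.05 CPM against 15.4 and 15.3 CPM in RT112, a log2 fold change of -2.72 ± 0.21 and 0.71 ± 0.21. Both were called for the difference. In RT112 the rise of STAT2 missed the limit by size and not by p (adjusted p = 0.0007). That of IRF9 missed it by size and by p (adjusted p = 0.0126). SOCS1, a feedback inhibitor of the pathway, rose in RT112 from 0.392 and 0.407 CPM to 1.88 and 2.44 CPM and stood in J82 at 2.36 and 0.982 CPM in control and 0.465 and 0.745 CPM with CM-1758. Its difference was -3.87 ± 0.69 (adjusted p = 0.000935), and its rise in RT112 was no longer called without RT112 control replicate 1 (adjusted p = 0.0126) or 2 (adjusted p = 0.0109). Among 21 tested ligands, receptors and signalling genes 4 were called for a response higher in RT112, beside 3.2% of the genes tested. For the receptor subunit IFNAR1 the log2 fold change was -0.21 ± 0.15 in J82 and -0.08 ± 0.15 in RT112, for IFNAR2 0.37 ± 0.22 and 0.17 ± 0.20, and for the kinase JAK1 -0.26 ± 0.13 and 0.56 ± 0.13. The ligand IFNB1 stood at 1.79 and 0.545 CPM in J82 control, 0.215 and 0.271 CPM in J82 CM-1758 and at or below 0.0678 CPM in every RT112 library.

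The chemokine CXCL10, which draws T cells to sites of interferon release, had a larger difference than any of the antiviral genes. It stood at 19.3 and 8.33 CPM in J82 control, 1.83 and 0.508 CPM in J82 CM-1758, 0.196 and 0.169 CPM in RT112 control and 6.3 and 8.7 CPM in RT112 CM-1758. With CM-1758 the order of the lines was therefore reversed, RT112 above J82. The difference was -8.89 ± 1.09 (adjusted p = 5.53e-05), and the fall in J82 was -3.57 with all libraries and -2.92 without J82 CM-1758 replicate 3 (adjusted p = 0.0104). CXCL11, which signals through the same receptor, stood at 4.75 and 2.91 CPM against 0.573 and 0 CPM in J82 and at 0.327 and 0.237 CPM against 1.53 and 2.4 CPM in RT112. Its difference was -6.52 ± 1.16 (adjusted p = 0.00115), and its rise in RT112 of 2.78 ± 0.82 was not called (adjusted p = 0.0129). Without J82 CM-1758 replicate 1 the remaining treated J82 library holds 0 counts of CXCL11, and the fitted difference became -12.45 and the J82 change -9.65 in place of -3.74. Without J82 control replicate 1 its fall in J82 was not called (-3.35, adjusted p = 0.0106). Both genes overlap ART3 in the annotation.

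Among 21 tested genes of MHC class I presentation, 15 fell in J82 and 5 in RT112, beside 6.46% and 7.27% of the genes tested, 3 rose in RT112, beside 16.1%, and 4 were called for a response higher in RT112, beside 3.2%. NLRC5, the transactivator of these genes, fell in J82 from 66.2 and 36.6 CPM to 15.2 and 8.77 CPM and rose in RT112 from 1.21 and 1.25 CPM to 6.34 and 9.57 CPM, a difference of -4.79 ± 0.47 (adjusted p = 5.67e-06). HLA-B rose in RT112 from 28.3 and 26 CPM to 154 and 144 CPM, while the J82 values were 3223 and 1791 CPM in control and 1971 and 1316 CPM with CM-1758, which overlap. HLA-F rose in RT112 from 0.327 and 0.542 CPM to 16.8 and 16.1 CPM, and its J82 values were 500 and 243 CPM in control and 238 and 116 CPM with CM-1758, with a log2 fold change of -1.07 ± 0.31 that was not called (adjusted p = 0.0116). PSMB9, a subunit of the immunoproteasome, stood at 59.6 and 48.9 CPM against 22.5 and 14.3 CPM in J82 and at 3.92 and 2.64 CPM against 5.2 and 5.3 CPM in RT112, a difference of -2.24 ± 0.32 that fell to -1.94 without J82 CM-1758 replicate 3 and to -1.98 without RT112 control replicate 2. The median log2 fold change of the list was -1.44 in J82 and -0.66 in RT112. HLA genes share long stretches of sequence, and how reads that match several of them were counted is not given in the sources used here. Of 9 tested MHC class II genes 6 rose in J82 and 6 in RT112, beside 13.7% and 16.1% of the genes tested. By edgeR 0 were called for the difference, with 5 at an unadjusted p under 0.05, and DESeq2 called 3. HLA-DRA rose in J82 from 5.55 and 1.96 CPM to 25.5 and 21.1 CPM. In RT112 it rose from 0 counts in both control libraries to 2.11 and 1.49 CPM. The rise there was at least 18-fold against a floor of 3 counts per library. Such folds, here and below, compare the mean of 2 libraries with the floor, and a single library can lie nearer to it.

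The genes with the largest opposite changes included several that do not belong to the interferon response. CDH4, a cadherin, was near the floor throughout, at 9 and 8 counts in J82 control, 0 in both J82 CM-1758 libraries, 0 in both RT112 control libraries and 13 and 9 counts in RT112 CM-1758. It was at least 3.03-fold lower in J82 and at least 4.27-fold higher in RT112, and its J82 call was lost in 6 of the 8 fits that left out 1 library, with adjusted p between 0.0126 and 0.0425. Its RT112 call was lost without RT112 CM-1758 replicate 1 (adjusted p = 0.0186), RT112 control replicate 1 (adjusted p = 0.027) or RT112 control replicate 2 (adjusted p = 0.0253). By DESeq2 CDH4 was called in neither line (adjusted p = 0.0282 in J82 and 0.0121 in RT112), and no adjusted p was given for its difference. RFLNA, which encodes a filamin-binding protein, stood at 8.32 and 5.45 CPM in J82 control and 0 and 0.271 CPM with CM-1758, and at 0 and 0.237 CPM in RT112 control and 1.96 and 2.36 CPM with CM-1758. PLEKHA4, which encodes a protein with a pleckstrin homology domain, stood at 3.57 and 1.42 CPM in J82 control and 0.286 and 0 CPM with CM-1758, and rose in RT112 from 0 counts in both control libraries to 2.5 and 1.68 CPM, at least 20.9-fold higher. The fitted differences were -9.74 ± 0.98 for RFLNA and -12.94 ± 1.45 for PLEKHA4 (adjusted p = 1.56e-05 and 2.61e-05). They depend on libraries with 0 counts: without J82 CM-1758 replicate 3 that of RFLNA was -14.70 and its J82 change -10.54 in place of -5.59, and without J82 CM-1758 replicate 1 the J82 change of PLEKHA4 moved from -4.11 to -9.03. Without RT112 control replicate 2 the RT112 change of RFLNA moved from 4.16 to 8.87.

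RASGRP3, an activator of Ras, stood at 11.1 and 12.5 CPM in J82 control and 1.43 and 1.52 CPM with CM-1758. Its RT112 values were 0.0654 and 0 CPM in control and 0.978 and 0.305 CPM with CM-1758, at least 6.43-fold higher, and the 2 treated libraries were far apart. The RT112 change of 4.09 was not called without RT112 CM-1758 replicate 1 (3.03, adjusted p = 0.0224) or RT112 control replicate 2 (3.20, adjusted p = 0.0136), and was 7.12 without RT112 control replicate 1. EMP3, a membrane glycoprotein, fell in J82 from 90.3 and 60.4 CPM to 11.6 and 7.21 CPM and stood in RT112 at 0.163 and 0.203 CPM in control and 0.783 and 1.33 CPM with CM-1758, a difference of -5.51 ± 0.60 (adjusted p = 1.37e-05). Its RT112 rise of 2.51 was not called without RT112 CM-1758 replicate 2 (2.07, adjusted p = 0.032), RT112 control replicate 1 (adjusted p = 0.0214) or RT112 control replicate 2 (adjusted p = 0.0134).

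Of 44 tested mesenchymal and matrix genes 2 were also in this class, beside 0.315% of the genes tested. SPARC, a secreted matrix glycoprotein, stood at 4.1 and 5.53 CPM in J82 control and 1.61 and 0.982 CPM with CM-1758, and rose in RT112 from 0 counts in both control libraries to 1.06 and 0.534 CPM, at least 7.96-fold higher. LOXL2, which crosslinks collagen, stood at 257 and 143 CPM in J82 control and 103 and 68.1 CPM with CM-1758, and at 0.262 and 0.407 CPM in RT112 control and 6.14 and 8.2 CPM with CM-1758. The difference of LOXL2 was -5.63 ± 0.49 (adjusted p = 1.87e-06), but its fall in J82, -1.22, was not called without J82 control replicate 1 (-0.74, adjusted p = 0.0188) or J82 CM-1758 replicate 3 (-0.95, adjusted p = 0.02). FADS2, a fatty acid desaturase, fell in J82 from 50 and 33.4 CPM to 16.7 and 12.7 CPM and rose in RT112 from 1.6 and 2.98 CPM to 9.74 and 10.7 CPM. Its neighbour FADS1, which overlaps it, rose in RT112 from 23.3 and 27.8 CPM to 121 and 112 CPM, with a J82 change of -0.27 ± 0.18 that was not called. The differences were -3.66 ± 0.36 for FADS2 and -2.46 ± 0.26 for FADS1 (adjusted p = 6.00e-06 and 9.21e-06).

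The 72 genes that rose in J82 and fell in RT112 were mostly genes that stood higher in RT112 control. GJB2, a gap junction connexin, had 3 and 0 counts in J82 control and stood at 4.3 and 4.23 CPM with CM-1758, at least 38.2-fold higher, and fell in RT112 from 153 and 186 CPM to 20.8 and 28.9 CPM. RNF128, an E3 ubiquitin ligase, rose in J82 from 0.19 and 0.291 CPM to 10.9 and 12.3 CPM and fell in RT112 from 149 and 142 CPM to 7.75 and 20.9 CPM. The fitted J82 change of GJB2 was 6.14 with all libraries and 9.86 without J82 control replicate 1. With CM-1758 the RNF128 level of J82 lay within the range of the 2 RT112 libraries. The log2 fold change of RNF128 was 5.56 ± 0.60 in J82 and -3.35 ± 0.38 in RT112, a difference of 8.90 ± 0.69 (adjusted p = 6.63e-07).

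The secreted ligands BMP3 and WNT11 were among these genes. BMP3, a ligand of the bone morphogenetic protein family, had 0 counts in both J82 control libraries and reached 0.859 and 0.711 CPM with CM-1758, at least 7.04-fold higher, while RT112 fell from 174 and 132 CPM to 10.3 and 17.9 CPM. WNT11, a Wnt ligand, stood at 0.304 and 0 CPM in J82 control and 4.69 and 3.83 CPM with CM-1758, and at 50.1 and 70.4 CPM in RT112 control and 11 and 10.8 CPM with CM-1758. CRABP2, which carries retinoic acid to its receptors, rose in J82 from 0.38 and 0.145 CPM to 1.79 and 1.62 CPM and fell in RT112 from 33 and 28.5 CPM to 7 and 4.73 CPM. The control and treated libraries were apart in both lines for all 3 genes. The fitted J82 change of WNT11 was 4.79 with all libraries and 9.86 without J82 control replicate 1, where the remaining control library has 0 counts, and its difference then was 12.33 in place of 7.26.

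BCAS1, a gene first described as amplified in breast carcinoma, had 0 counts in both J82 control libraries and reached 0.68 and 1.59 CPM, at least 10.2-fold higher, and fell in RT112 from 141 and 116 CPM to 17.8 and 20 CPM. TNNT3, a troponin T of fast skeletal muscle, had 0 counts in J82 control and 0.179 and 0.508 CPM with CM-1758, at least 3.08-fold higher, and fell in RT112 from 9.19 and 8.98 CPM to 0.9 and 1.98 CPM. PDE4B, a phosphodiesterase that breaks down cyclic AMP, stood at 1.56 and 0.218 CPM in J82 control and 6.55 and 7.89 CPM with CM-1758, and at 2.03 and 2.41 CPM in RT112 control and 0.196 and 0.229 CPM with CM-1758. The groups did not overlap in either line. LRRC17, a secreted leucine-rich repeat protein, was near the floor, with 0 counts in both J82 control libraries, 5 and 8 counts with CM-1758, and 6 and 14 counts in RT112 control against 0 and 1 with CM-1758. The opposite changes of LRRC17, TNNT3 and PDE4B rested on few counts or on single libraries. The J82 call of LRRC17 was lost in 6 of the 8 fits without 1 library (adjusted p between 0.0105 and 0.0496), that of TNNT3 without J82 CM-1758 replicate 3 (adjusted p = 0.0454) and in 4 other such fits (adjusted p between 0.0105 and 0.0314), and the RT112 call of PDE4B without RT112 CM-1758 replicate 1 (adjusted p = 0.025), RT112 CM-1758 replicate 2 (adjusted p = 0.022) or RT112 control replicate 2 (adjusted p = 0.0124). The RT112 call of LRRC17 was lost in 4 such fits (adjusted p between 0.0102 and 0.068), with a change of -6.20 in place of -3.82 without RT112 CM-1758 replicate 2, and that of TNNT3 without RT112 CM-1758 replicate 1 (adjusted p = 0.0137). By DESeq2 the RT112 fall of LRRC17 was not called (adjusted p = 0.0178). Without J82 CM-1758 replicate 3 the differences of LRRC17 and TNNT3 were not called (adjusted p = 0.0107 and 0.0113). Without J82 control replicate 1 the J82 change of PDE4B was 5.02 in place of 3.03.

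Of 23 tested urothelial differentiation genes 3 were in this class, UPK1B, UPK3B and SNX31, beside 0.338% of the genes tested. UPK1B, a uroplakin, had 0 counts in J82 control, 4 and 18 counts in J82 CM-1758, and fell in RT112 from 1298 and 1517 CPM to 345 and 359 CPM. UPK3B, another uroplakin, stood at 0.266 and 0.254 CPM in J82 control and 0.752 and 1.52 CPM with CM-1758, and fell in RT112 from 67.3 and 79.4 CPM to 22.8 and 25.7 CPM. SNX31, a sorting nexin that binds uroplakins, stood at 0.152 and 0 CPM in J82 control and 0.859 and 1.59 CPM with CM-1758, and fell in RT112 from 8.04 and 5.08 CPM to 0.274 and 0.496 CPM. The uroplakins thus remained far higher in RT112 than in J82 after treatment, and the rise in J82 took place at under 2 CPM. The J82 call of UPK1B, at least 3.37-fold higher, was lost without J82 CM-1758 replicate 3 (5.00, adjusted p = 0.0894) and in 7 of the 8 such fits in all, that of UPK3B without J82 CM-1758 replicate 3 (1.52, adjusted p = 0.0429), J82 control replicate 1 (adjusted p = 0.0129) or J82 control replicate 3 (adjusted p = 0.0165), and that of SNX31 without J82 CM-1758 replicate 3 (3.45, adjusted p = 0.0107). The difference of UPK1B was not called without J82 CM-1758 replicate 3 (adjusted p = 0.0363). Without J82 control replicate 1 the J82 change of SNX31 was 8.07 in place of 3.96 and its difference 12.15 in place of 8.03. Over the list 5 genes rose and 1 fell in J82, beside 13.7% and 6.46% of the genes tested, 2 rose and 7 fell in RT112, beside 16.1% and 7.27%, and the median log2 fold change was 0.12 and -0.82. In J82, 12 of the 23 had at most 3 counts in every library of a group.

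ERBB3 and FGFR3, receptor tyrosine kinases of the urothelium, changed in opposite directions at levels well above the floor. ERBB3 rose in J82 from 18.8 and 16.8 CPM to 110 and 98.4 CPM and fell in RT112 from 201 and 212 CPM to 83.1 and 88 CPM. The ERBB3 level of treated J82 was thus above that of treated RT112, the reverse of the order in control. FGFR3 rose in J82 from 13.4 and 12.1 CPM to 53.2 and 50.1 CPM and fell in RT112 from 829 and 807 CPM to 441 and 374 CPM. The differences were 3.82 ± 0.33 for ERBB3 and 3.02 ± 0.22 for FGFR3 (adjusted p = 1.66e-06 and 3.33e-07). The fall of FGFR3 in RT112 lay at the threshold, -1.01, and was -0.89 without RT112 CM-1758 replicate 2, -0.99 without RT112 control replicate 1 and -0.98 without J82 CM-1758 replicate 1, which ended the call by size and not by p, as did DESeq2 (-0.93).

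**Figure D2:**
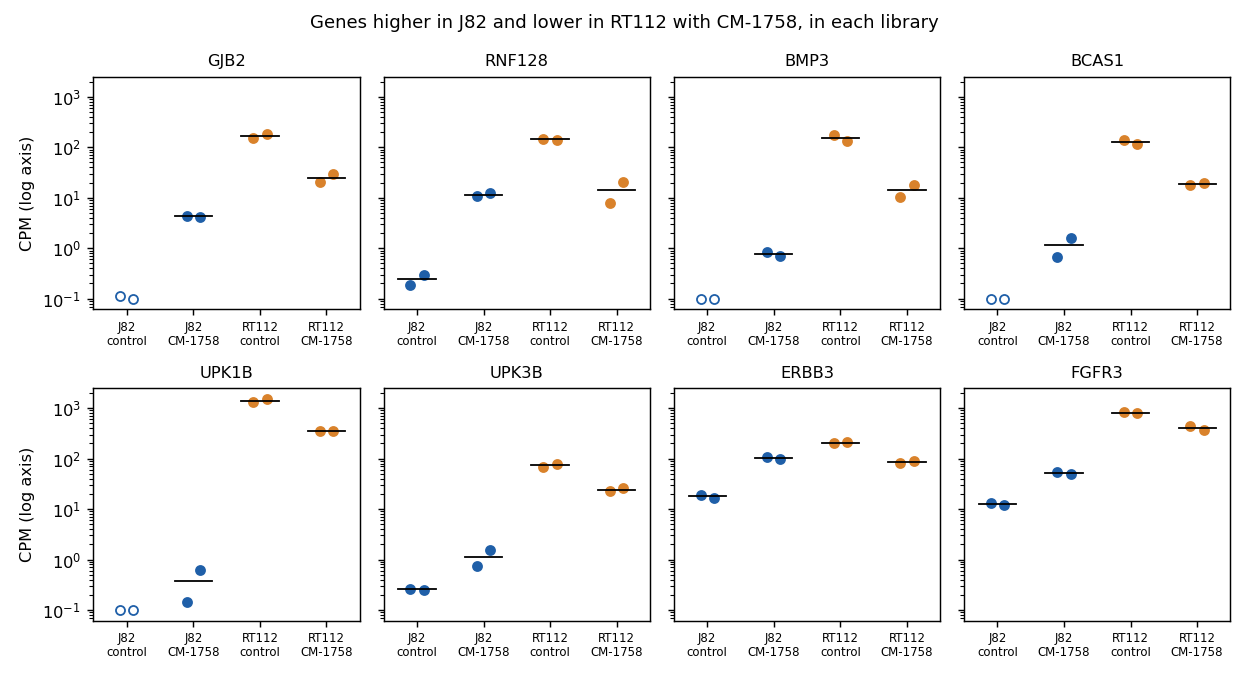
CPM on a log axis of 8 genes that rose in J82 and fell in RT112, in each of the 8 libraries, with J82 in blue and RT112 in orange. Bars mark the mean of the 2 libraries of a group, open circles are libraries with at most 3 counts, drawn no lower than 0.1 CPM, and ERBB3 is the panel in which the J82 CM-1758 libraries lie above the RT112 CM-1758 libraries.

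The control level differed between the lines in nearly every gene of both opposite classes. Of the 67 genes lower in J82 and higher in RT112, 62 were called higher in J82 control and 0 in RT112 control, beside 16.1% and 15.1% of all genes tested. Of the 72 genes higher in J82 and lower in RT112, 0 were called higher in J82 control and 70 in RT112 control. In the first class the median over genes of the mean CPM was 37.7 in J82 control and 12 in J82 CM-1758, and 0.832 in RT112 control and 4.02 in RT112 CM-1758. In the second class it was 0.261 in J82 control and 2.48 in J82 CM-1758, and 70.1 in RT112 control and 21 in RT112 CM-1758. The fitted distance between the lines was smaller after treatment in 57 of the 67 genes and in 69 of the 72. It was larger in the other 10 and 3, among them CDH4, with a log2 ratio of J82 to RT112 of 6.13 in control and -6.55 with CM-1758, and PDE4B, with -1.33 and 5.06. These 2 examples were chosen after their values were seen. The treated log2 ratio of the lines equals the control log2 ratio plus the difference on which the classes were selected. Where these 2 terms had opposite signs, the distance could grow only by overshoot. The counts of genes with a smaller distance thus follow largely from the selection. In the first class 24 genes were still called higher in J82 among the treated libraries and 14 were called higher in RT112. In the second class 45 were called higher in RT112 and 5 in J82. The response and the control level use the same control libraries, so a low control value raises the fold change and lowers the level at once, and the counts above are a description. Of the second class 24 genes had at most 3 counts in both J82 control libraries, and of the first class 13 had at most 3 counts in both RT112 control libraries.

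The control levels of the larger sets, which hold the opposite classes, were counted as well. Over all genes tested, 15.1% were called higher in RT112 control and 16.1% in J82 control. The counts below also rest on the control libraries that the response uses and are a description. Of the 600 genes whose response was higher in J82, 549 were higher in RT112 control and 6 in J82 control, and 172 had at most 3 counts in both J82 control libraries. Of the 681 genes whose response was higher in RT112, 608 were higher in J82 control and 7 in RT112 control, and 220 had at most 3 counts in both RT112 control libraries. Of the genes that moved in 1 line, 325 of the 356 that rose in J82 and 67 of the 82 that fell in RT112 were higher in RT112 control, and 356 of the 395 that rose in RT112 and 63 of the 79 that fell in J82 were higher in J82 control. Among the 356 genes that rose in J82 and were not called in RT112 the median CPM went from 0.555 to 5.69 in J82 and from 18.3 to 17.7 in RT112. Among the 395 that rose in RT112 and were not called in J82 it went from 0.233 to 3.76 in RT112 and from 11.3 to 12.1 in J82.

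The next genes had the largest differences outside the opposite classes among those with at least 5 CPM in every library of 1 group in each line. FABP4, a fatty acid binding protein of adipocytes and urothelium, had 0 counts in both J82 control libraries and stood at 8.41 and 15.1 CPM in J82 CM-1758, at least 106-fold higher, while RT112 stood at 1018 and 1036 CPM in control and 493 and 743 CPM with CM-1758. TC2N, a C2 domain protein, had 0 counts in J82 control, reached 6.19 and 8.36 CPM, at least 65.3-fold higher, and in RT112 stood at 68.9 and 69 CPM against 50.6 and 56.8 CPM. DMKN, which encodes the epithelial secreted protein dermokine, had 0 and 2 counts in J82 control and reached 10.2 and 14 CPM, at least 109-fold higher, and in RT112 stood at 17.7 and 18.2 CPM against 24.1 and 23.1 CPM. These 3 genes rose in J82 and were not called in RT112. GDA, which deaminates guanine, and MCF2L, a guanine nucleotide exchange factor, rose in both lines. GDA went from 0 and 0.145 CPM to 45.2 and 41.7 CPM in J82 and from 48.9 and 62.2 CPM to 214 and 250 CPM in RT112. MCF2L had 0 counts in J82 control and reached 9.81 and 11.3 CPM, at least 94.8-fold higher, and in RT112 went from 3.92 and 4.64 CPM to 24.4 and 29.9 CPM. The fitted difference of GDA was 7.04 with all libraries and 11.15 without J82 control replicate 3.

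In the other direction the 5 genes with the largest differences under the same limit all had 0 counts in both RT112 control libraries. Fitted differences at 0 counts depend on the prior count, so a ranking by size favours such genes. PAK3, a p21-activated kinase, reached 42.3 and 45.2 CPM in RT112, at least 438-fold higher, and rose in J82 from 8.78 and 6 CPM to 46.7 and 45.2 CPM. The treated libraries of the 2 lines had nearly the same level of PAK3. NELL2, a secreted neural protein, reached 10.1 and 13 CPM in RT112, at least 115-fold higher, and stood in J82 at 113 and 134 CPM in control and 217 and 233 CPM with CM-1758. SLFN11, which blocks stalled replication forks and is known as a marker of sensitivity to DNA damaging drugs, reached 5.05 and 5.34 CPM in RT112, at least 52-fold higher, and stood in J82 at 170 and 166 CPM in control and 193 and 174 CPM with CM-1758. CA8, a relative of carbonic anhydrases, reached 12.5 and 8.92 CPM in RT112, at least 107-fold higher, and rose in J82 from 20.4 and 23.7 CPM to 46.9 and 56.5 CPM. SOGA3 reached 11.9 and 13 CPM in RT112, at least 125-fold higher, and rose in J82 from 12.2 and 10.3 CPM to 38.8 and 27.1 CPM. NELL2 and SLFN11 were not called in J82.

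Of 37 tested genes of epithelial junctions and their regulators, 14 rose and 2 fell in J82, beside 13.7% and 6.46% of the genes tested, and 5 rose and 3 fell in RT112, beside 16.1% and 7.27%. For the difference 7 were called for a response higher in J82 and 0 for one higher in RT112, beside 2.82% and 3.2%. ESRP1, an epithelial splicing regulator, had 0 counts in both J82 control libraries and reached 4.33 and 3.39 CPM, at least 34.6-fold higher, and stood in RT112 at 189 and 215 CPM in control and 149 and 168 CPM with CM-1758. SPINT1, an inhibitor of membrane serine proteases, rose in J82 from 1.52 and 0.654 CPM to 22.6 and 14.7 CPM, with RT112 at 185 and 215 CPM against 295 and 248 CPM. CDH3, which encodes P-cadherin, rose in J82 from 1.29 and 0.436 CPM to 7.34 and 6.57 CPM, and the tight junction gene CLDN7 from 1.48 and 0.509 CPM to 9.49 and 5.04 CPM. RT112 stood at 228 and 217 CPM against 171 and 170 CPM for CDH3 and at 115 and 132 CPM against 123 and 92.9 CPM for CLDN7, and neither was called there. By DESeq2 the difference of CLDN7 was not called (3.07, adjusted p = 0.0106). CDH1, which encodes E-cadherin, rose in J82 from 3.38 and 4.25 CPM to 25.1 and 27.2 CPM, a log2 fold change of 2.77 ± 0.24. In RT112 it stood at 461 and 473 CPM in control and 875 and 872 CPM with CM-1758, and its difference of 1.87 ± 0.31 was under the limit of 2. The median log2 fold change of the list was 0.79 in J82 and 0.04 in RT112, and 0.54 in J82 with genes at or under 3 counts set at their bound.

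Of 44 tested mesenchymal and matrix genes 8 rose and 7 fell in J82, beside 13.7% and 6.46% of the genes tested, and 19 rose and 4 fell in RT112, beside 16.1% and 7.27%. For the difference 13 were called for a response higher in RT112 and 1 for one higher in J82, beside 3.2% and 2.82%. The list's median log2 fold change was -0.17 in J82 and 1.00 in RT112. COL6A3, a collagen VI chain, rose in RT112 from 0 and 0.169 CPM to 23.6 and 31.8 CPM, and stood in J82 at 2.17 and 2.47 CPM in control and 1.07 and 1.08 CPM with CM-1758. Without RT112 control replicate 2 the fitted RT112 change of COL6A3 moved from 8.30 to 12.55. VIM, which encodes the intermediate filament protein vimentin, rose in RT112 from 0.719 and 0.169 CPM to 10.6 and 6.37 CPM and stood in J82 at 279 and 314 CPM against 168 and 131 CPM. Of the transcription factors of the mesenchymal state, ZEB1 and ZEB2 are given for RT112 only, without the difference between the lines. Both rose there, ZEB1 from 0.687 and 0.169 CPM to 5.4 and 4.16 CPM and ZEB2 from 0.0654 and 0 CPM to 0.822 and 0.992 CPM. TWIST1, another of them, had 0 counts in both RT112 control libraries and 14 and 7 counts with CM-1758, at least 4.08-fold higher, and stood in J82 at 3.57 and 5.82 CPM against 4.01 and 3.62 CPM. PDGFRB, a receptor of mesenchymal cells, had 0 counts in RT112 control and 13 counts in each treated library, at least 5.03-fold higher. Its J82 values were 41 and 36.6 CPM against 52.1 and 35.3 CPM, and its difference was not called when any 1 RT112 library was left out (adjusted p between 0.0123 and 0.0226).

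Of 30 tested ERBB and FGF receptors, ligands and feedback genes, 12 were called for a response higher in J82 and 2 for one higher in RT112, beside 2.82% and 3.2% of the genes tested. In J82 14 of them rose and 2 fell, beside 13.7% and 6.46%, and in RT112 9 rose and 3 fell, beside 16.1% and 7.27%. Beside ERBB3 and FGFR3, the receptor ERBB4 rose in J82 from 0.418 and 0.473 CPM to 24.2 and 24.4 CPM and in RT112 from 4.12 and 4.51 CPM to 10.2 and 9.88 CPM, a difference of 4.54 ± 0.37 (adjusted p = 1.62e-06). FGFR2 had 0 counts in both J82 control libraries and 0.716 and 0.508 CPM with CM-1758, at least 5.49-fold higher, with RT112 at 79.9 and 72.6 CPM against 59.1 and 61.5 CPM. FGFR4 had 2 and 0 counts in J82 control and 7.2 and 5.86 CPM with CM-1758, at least 58.5-fold higher, and rose in RT112 from 2.35 and 2.58 CPM to 28.1 and 26.9 CPM. Its fitted difference of 3.81 was over 1.5 times as large without J82 control replicate 1, and was 2.87 and not called (adjusted p = 0.0187) without J82 control replicate 3. The ligand TGFA rose in both lines, from 0.608 and 0.727 CPM to 7.77 and 4.74 CPM in J82 and from 48.2 and 53.1 CPM to 103 and 118 CPM in RT112. DUSP6, a feedback phosphatase of the MAP kinase pathway, rose in J82 from 7.26 and 7.13 CPM to 25.2 and 26.9 CPM, and stood in RT112 at 215 and 185 CPM against 132 and 135 CPM.

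Of 27 tested cytokine, chemokine and NF-kB genes, 12 rose and 0 fell in RT112, beside 16.1% and 7.27% of the genes tested, and 5 rose and 3 fell in J82, beside 13.7% and 6.46%. For the difference 6 were called for a response higher in RT112, beside 3.2%. BIRC3, an inhibitor of apoptosis induced by NF-kB, rose in both lines, from 23.8 and 12.1 CPM to 110 and 83.9 CPM in J82 and from 2.13 and 2.98 CPM to 397 and 428 CPM in RT112, a difference of -4.90 ± 0.40 (adjusted p = 1.03e-06). The cytokine IL1A rose in RT112 from 1.6 and 2.17 CPM to 14 and 35.3 CPM and stood in J82 at 5.77 and 6.83 CPM against 5.73 and 6.5 CPM. RELB, an NF-kB subunit, rose in RT112 from 1.8 and 1.73 CPM to 9.27 and 9.99 CPM, and the adhesion molecule ICAM1 from 1.9 and 2.03 CPM to 9.27 and 11.4 CPM. In J82 RELB stood at 11.5 and 6.22 CPM against 11.2 and 9.34 CPM and ICAM1 at 86.7 and 46.6 CPM against 54 and 29.1 CPM. The list's median log2 fold change was 0.68 in J82 and 2.45 in RT112, and 2.17 in RT112 with genes at or under 3 counts set at their bound.

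Of 34 tested DNA replication and mitosis genes 17 fell in J82 and 14 in RT112, beside 6.46% and 7.27% of the genes tested, 0 rose in either line, and 0 were called for the difference by edgeR or by DESeq2, with 21 at an unadjusted p under 0.05 in edgeR and 8 at an adjusted p under 0.01 but a difference under the limit. Their median change on the log2 scale was -1.01 in J82 and -0.67 in RT112. The CDK inhibitor CDKN1A rose in J82 from 13.1 and 7.78 CPM to 76.7 and 144 CPM and stood in RT112 at 60.1 and 65.1 CPM against 72 and 77.7 CPM, a difference of 3.15 ± 0.36 (adjusted p = 2.09e-05). CDKN1C, another CDK inhibitor, rose in J82 from 0.532 and 0.727 CPM to 5.76 and 7.79 CPM and in RT112 from 3.14 and 2.3 CPM to 6.65 and 5.72 CPM. Its difference of 2.23 ± 0.42 was 2.00 without RT112 control replicate 1, at the limit, and its rise in RT112 was not called without RT112 CM-1758 replicate 1 (1.07, adjusted p = 0.0195) or RT112 control replicate 2 (0.97, adjusted p = 0.0347). Both are the called members of 11 tested CDK inhibitors and D-type cyclins, where 2.82% of all genes were called in this direction. HRK, a pro-apoptotic member of the BCL2 family, was the called member of 30 tested apoptosis genes, a share near the 3.2% of all genes. It rose in RT112 from 0.327 and 0.373 CPM to 4.81 and 2.63 CPM and stood in J82 at 3.08 and 1.75 CPM against 2.47 and 1.93 CPM. The HRK difference of -3.53 ± 0.87 (adjusted p = 0.0086) was lost in 6 of the 8 fits without 1 library, with adjusted p between 0.0174 and 0.0413, and with library size alone (adjusted p = 0.0105), and its RT112 call without RT112 control replicate 1 (adjusted p = 0.0106). Of 11 histone deacetylase genes, HDAC9 was called, beside 3.2% of all genes, with 4.33 and 3.13 CPM against 9.49 and 8.26 CPM in J82 and 0.752 and 0.474 CPM against 12.6 and 12.7 CPM in RT112, a difference of -3.10 ± 0.32 (adjusted p = 9.30e-06). Of 30 cholesterol and fatty acid synthesis genes FADS1 and FADS2 were called, beside 3.2% of all genes, and 8 fell in J82 and 5 in RT112, beside 6.46% and 7.27%.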

How the data were processed

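RNA-seq was done on 16 libraries of 4 bladder cancer cell lines, of which the 8 of J82 and RT112 are described. The authors deposited 1 table of raw counts, whole numbers of reads per gene symbol for 35993 genes, without normalization. Libraries were stranded and depleted of ribosomal RNA per the study's methods. The submitters' processing notes name HISAT2, StringTie and GRCh37, without roles. The counting settings and whether strand was used are not given in the sources used here, so reads of overlapping genes cannot be told apart, and 34 of 68 genes picked by the rule below overlap another gene. Every column was matched to a sample by its label.

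Low genes were removed by filterByExpr, given the 8 groups of the series, and 21297 remained. The quasi-likelihood fit (edgeR 4.0.16, R 4.3.3, TMM scaling) took in all 16 libraries, with 8 residual degrees of freedom and a common biological coefficient of variation of 0.153. The differential analysis of the study used DESeq2, which is an alternative here. The difference was the contrast of J82 CM-1758 minus J82 control less RT112 CM-1758 minus RT112 control. A difference was called at an adjusted p under 0.01 and an absolute log2 difference above 2, and a change in 1 line at an adjusted p under 0.01 and an absolute log2 fold change above 1. Adjusted p-values are Benjamini-Hochberg values of edgeR over all genes tested. SE is the log2 value divided by the square root of F. Counts of 3 or fewer per library were the floor. Folds against it are bounds for counting error at the floor only. They use the mean of the 2 libraries of the other group and leave out the spread between those libraries. In the lists, genes at the floor in a group carry a fitted value that depends on the prior count.

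The genes named were, in each opposite class, the 10 with the largest smaller of both absolute changes among those whose libraries did not overlap and held over 3 counts where the gene was high, then the 5 with the largest other differences in each direction among genes at 5 CPM or more, and from each list up to 4 called members, every member in an opposite class and members named for their role. Antisense, readthrough, pseudogene, uncharacterized and Y-linked rows were counted and not named. The comparison, its members, the lists and the rules were chosen with earlier results of these data known. RefSeq promoters and gene names are of GRCh38.p14, and no coordinates of the counted genes are given because the build differs. Of the symbols, 34000 are current in RefSeq and 744 matched through a synonym. Alternatives tried were normalization by RLE or by library size only, a fit to the 2 lines alone, other filters and thresholds, small noncoding RNA genes left out, DESeq2 1.42.0, a replicate block and each library left out. The fit was tested on simulated data. Some genes that the rule selects are not reported here.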

Additional observations from a re-analysis of the deposited data

Results flagged for a closer look

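The response to CM-1758 differed between J82 and RT112 by a test of the difference itself, the contrast of both responses in edgeR, for the genes below. Counted over the opposite classes, 67 genes were lower in J82 and higher in RT112 and 72 were higher in J82 and lower in RT112. The values are log2 differences, J82 response minus RT112 response, and those of genes with 0 counts in a group depend on the prior count.

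The response was higher in RT112, with a difference of -12.67 for CDH4, -9.74 for RFLNA, -12.94 for PLEKHA4, -8.26 for RSAD2, -8.89 for CXCL10, -7.08 for RASGRP3, -6.28 for IFIT1, -6.18 for OASL, -5.51 for EMP3, -5.79 for ISG15, -10.58 for PAK3, -10.43 for NELL2, -10.02 for SLFN11 and -9.96 for CA8. It was also higher in RT112, with a difference of -9.85 for SOGA3, -4.68 for DDX58, -4.55 for IFI6, -4.40 for IFIH1, -4.10 for EPSTI1, -3.50 for BST2, -2.62 for HERC5, -3.87 for SOCS1, -3.43 for IRF9, -2.68 for STAT2, -6.30 for HLA-F, -4.79 for NLRC5 and -3.07 for HLA-B. The remaining genes in this direction had a difference of -2.24 for PSMB9, -6.52 for CXCL11, -4.90 for BIRC3, -3.75 for IL1A, -9.40 for COL6A3, -9.34 for SPARC, -6.78 for TWIST1, -6.61 for PDGFRB, -5.63 for LOXL2, -3.53 for HRK, -3.66 for FADS2, -2.46 for FADS1 and -3.10 for HDAC9.

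The response was higher in J82, with a difference of 8.03 for SNX31, 9.47 for LRRC17, 10.86 for BMP3, 8.90 for RNF128, 6.38 for PDE4B, 8.91 for GJB2, 10.73 for BCAS1, 8.90 for TNNT3, 7.26 for WNT11, 5.08 for CRABP2, 12.06 for FABP4, 10.99 for TC2N, 8.50 for MCF2L and 7.79 for DMKN. The remaining genes in this direction had a difference of 7.04 for GDA, 10.06 for ESRP1, 3.66 for SPINT1, 3.40 for CDH3, 3.06 for CLDN7, 8.39 for UPK1B, 3.71 for UPK3B, 7.40 for FGFR2, 4.54 for ERBB4, 3.82 for ERBB3, 3.81 for FGFR4, 3.02 for FGFR3, 3.15 for CDKN1A and 2.23 for CDKN1C. No group had enough libraries for a test of a single library against the others of its group.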

How the results depend on the processing

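Leaving out 1 library at a time gave 472 to 660 genes with a response higher in J82, 529 to 775 with a response higher in RT112, 43 to 80 lower in J82 and higher in RT112 (lowest without J82 CM-1758 replicate 3) and 47 to 70 higher in J82 and lower in RT112 (lowest without RT112 CM-1758 replicate 1). In all 8 such fits 371, 393, 25 and 26 of these genes were called. With at least 10 counts in every J82 and RT112 library the same 4 counts were 291, 312, 44 and 26, with 1580 genes risen in J82, 1604 risen in RT112, 2005 higher in J82 control and 2027 higher in RT112 control. Fewer genes are tested there, and a gene near 0 in 1 group cannot enter. With a log2 limit of 1 for the difference and none in each line the 4 counts were 1184, 1174, 138 and 161, with 2824 genes fallen in J82 and 3133 in RT112. At an adjusted p under 0.05 the opposite classes held 111 and 113 genes. With a log2 limit of 2 in each line they held 22 and 16, with 1876 genes risen and 265 fallen in J82, 295 fallen in RT112, 2042 higher in J82 control and 2064 higher in RT112 control.

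DESeq2 called 681, 801, 72 and 71 genes for the 4 counts, of which 587, 667, 58 and 57 were shared. Library size alone moved the median log2 fold change of all genes by 0.14 in J82 and 0.15 in RT112, and gave opposite classes of 60 and 51 genes. Over genes, the difference between the 2 control libraries correlated with that between the 2 treated libraries at 0.218 in J82 and 0.0427 in RT112. No label ties a number to a batch, so whether replicate numbers pair the samples is not known. With the replicate block the counts were 573, 644, 79 and 74, of which 532, 590, 61 and 64 were shared, and a block on the 2 lines alone, added after seeing the data, gave 550, 572, 73 and 72. With the replicate block CDH4 lost the call of the difference (adjusted p = 0.0168), of J82 (0.0461) and of RT112 (0.0284), and TNNT3 that of J82 (0.0103), and with the block on the 2 lines alone the differences of CDH4, SOCS1 and TWIST1 were lost (adjusted p = 0.0179, 0.0106 and 0.0109). Of 1116 differences of single genes under the alternatives, 1093 kept direction and call, 23 lost the call and 0 reversed, and DESeq2 gave no adjusted p for that of CDH4. These counts leave out the calls in each line: of 34 named genes of the opposite classes, 17 kept all 3 calls in every fit without 1 library, while 9 lost a J82 call and 11 an RT112 call in at least 1. Of 420 list medians 304 moved by less than the spread between replicates and 116 by more. With 2 libraries per group and different concentrations, small differences and low counts are the least certain.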

Other observations

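The other lines of the series, 253J and TCCSUP, received CM-1758 at their own IC50 and share no library with J82 or RT112. Of the 67 genes lower in J82 and higher in RT112, 14 rose and 10 fell in 253J, and 4 rose and 31 fell in TCCSUP. Of the 72 genes higher in J82 and lower in RT112, 20 rose and 15 fell in 253J, and 32 rose and 9 fell in TCCSUP. Of all genes tested, 16% rose and 12.2% fell in 253J, and 19.2% rose and 10.5% fell in TCCSUP. Of the 41 antiviral genes, 38 fell and 0 rose in TCCSUP, and 12 fell and 4 rose in 253J. BST2 and ISG15, among the 4 that rose in 253J, had log2 fold changes of 4.58 and 1.66 there and of -1.66 and -1.20 in TCCSUP. BST2 had a mean of only 0.0958 CPM in 253J control. IFIH1, among the 12 that fell in 253J, had log2 fold changes of -1.67 there and -1.89 in TCCSUP. BCAS1 rose in J82, 253J and TCCSUP and fell in RT112. SLFN11, at 0 counts in RT112 control, also rose in 253J and TCCSUP. No test compared these lines with J82 or RT112.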
